A study of Rattus norvegicus with 12 samples.

Results

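The genes described here are 42 genes of sterol and fatty acid synthesis, out of 20263 in the deposited expression tables of a study of high glucose, resveratrol and a sirtuin inhibitor in cultured H9C2 cells. They were chosen by identifier: a fixed list of human Ensembl identifiers, described as cholesterol synthesis enzymes, genes of the SREBP and LXR pathways, fatty acid synthesis enzymes and CH25H. CH25H was put on the list for its rise with resveratrol, so that rise is no finding. The list does not say which identifier is which gene, and neither the deposited tables nor the reference used here pairs them, so members are given by identifier and no role is given to any single one. All 42 were found in the tables.

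H9C2 is a line derived from embryonic rat heart, labelled as wild-type cardiomyocytes. Every group was kept for 48 h, with 3 libraries per group labelled as independent biological replicates. HG-Res-SIRT7-Inh cells received 100 mM glucose with 5 µM resveratrol and a further drug at 5 µM. The labels call that drug a SIRT7 inhibitor and name it SirReal2, which is commonly known as an inhibitor of SIRT2. HG-Res cells received 100 mM glucose and 5 µM resveratrol, a plant polyphenol often used to activate sirtuins. HG cells received 100 mM glucose alone, and Ctrl cells 5.5 mM glucose with no drug. The labels describe no osmotic control, no vehicle and no group given the inhibitor alone. All 20263 identifiers carry the human prefix ENSG, while the labels give rat and the build rn6. The species behind the values was not settled, and neither the label of the gene group nor that of the cell type could be checked against named marker genes.

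Cells make cholesterol from acetyl-CoA through mevalonate, farnesyl pyrophosphate, squalene and lanosterol. HMG-CoA reductase catalyses the step that limits the rate. When sterols in the endoplasmic reticulum are low, the escort protein SCAP carries SREBP transcription factors to the Golgi, where they are cut and freed to raise the synthesis enzymes and the LDL receptor. When sterols are high, INSIG proteins hold SCAP back, and oxysterols activate LXR receptors, which raise cholesterol exporters. SREBP-1 and LXR also raise the enzymes of fatty acid synthesis and desaturation. Cholesterol 25-hydroxylase, encoded by CH25H, makes 25-hydroxycholesterol, an oxysterol that blocks SREBP processing and is known from cells responding to interferon.

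Levels are in CPM, that is, per-gene reads after each library was brought to 1 common total. They take no account of gene length, so comparisons run across libraries and never from one gene to the next. The depth, estimated from the steps of the lowest values, was 30.2 to 33.3 M reads per library. Genes were tested if 3 or more of the 9 high-glucose libraries reached 0.5 CPM, and 12854 genes passed, with 41 members among them. The member that did not pass, ENSG00000160179, had 0.03 CPM in HG-Res replicate 1 and was listed at 0 in the other 8 libraries. Of the 42 members, 24 had at least 100 CPM in every high-glucose library, and a further 14 had at least 10 CPM. The third HG-Res-SIRT7-Inh library and the second HG library stood apart in the whole table. They are called the 2 outlying libraries here. Counts of calls and medians that moved by over 1.5 times, or changed call, without both of them are given both ways. So are differences of named members in the comparisons where they are described, by value or by adjusted p. Since the RNA was from bulk cultures, fewer cells of a type and less RNA per cell cannot be told apart.

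The member with the largest rise with resveratrol, ENSG00000138135, is given first as a description with no test, because a member was chosen for such a rise. It had 7.03, 5.06 and 4.51 CPM in the HG-Res libraries, against 1.45, 0.93 and 1.67 CPM in the HG libraries. The lowest HG-Res library was above the highest HG library. The means were 5.53 ± 1.32 CPM in HG-Res and 1.35 ± 0.38 CPM in HG (SD, n = 3 each), a ratio of 4.10 and a log2 change of 1.47 ± 0.17 (SE). With the inhibitor added, the HG-Res-SIRT7-Inh libraries had 1.22, 1.06 and 0.86 CPM, all below the HG-Res libraries and overlapping the HG range. Their mean was 1.05 ± 0.18 CPM (SD, n = 3), 0.189 of the HG-Res mean and 0.775 of the HG mean. The authors' deposited tables gave log2 fold changes of 2.06 for HG-Res over HG, -2.45 for HG-Res-SIRT7-Inh over HG-Res and -0.38 for HG-Res-SIRT7-Inh over HG. Each of these comparisons uses HG-Res or HG libraries, and the difference between those groups singled out the member. Its level in Ctrl is not known here, because the authors list Ctrl values only for marked genes and it is not among them. Among the other members the largest change in HG-Res against HG was 0.50.

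The other 40 members that passed the filter were tested for the effect of resveratrol in high glucose, HG-Res against HG. No member passed limma's adjusted p of 0.05, 0 of 40, where 0.708% of all genes tested did. At an unadjusted p under 0.05 there were 8 members, 6 higher and 2 lower, beside 10.7% of all genes. The smallest adjusted p among the members was 0.21 (limma). Most differences leaned upward. HG-Res was higher in 28 members and lower in 12, with a median log2 difference of 0.13, where the median of all genes was -0.0005 and 49.9% of genes were higher. The members' differences ranged from -0.33 to 0.50. The 95% interval lay within a 2-fold change either way for all 40 members, and within a 1.5-fold change for 27. These intervals rest on 1 spread shared by the 3 groups, so they carry the spread of HG-Res-SIRT7-Inh libraries not compared here. They are not bounds from HG-Res and HG alone.

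**Figure D1:**
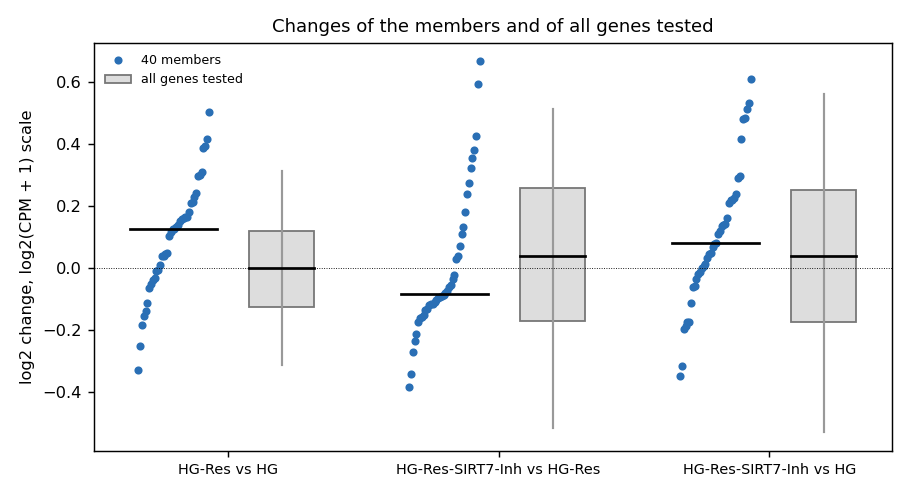
Log2 change on the log2(CPM + 1) scale (vertical axis) in each comparison (horizontal axis) for the 40 members as points with their median as a line, beside all 12854 genes tested, with a box from the lower to the upper quartile, a line at the median and whiskers from the 5th to the 95th percentile. The members' median lies above that of all genes in HG-Res against HG (0.13 and -0.0005) and below it in HG-Res-SIRT7-Inh against HG-Res (-0.08 and 0.04), all 9 libraries included.

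The libraries of HG-Res and HG did not overlap in 18 members. In 14 of the 40 (35%) every HG-Res library was above every HG library, which held for 15% of all genes, and in 4 (10%) every HG-Res library was below, beside 14.8% of all genes. ENSG00000131069 had 130.83, 136.12 and 137.61 CPM in HG-Res, against 102.37, 103.02 and 101.77 CPM in HG, with no overlap. The log2 difference was 0.39 ± 0.11 (SE), with a 95% interval of 0.14 to 0.65 and a limma adjusted p of 0.21. ENSG00000131473 had 720.84, 745.02 and 718.81 CPM in HG-Res, against 573.25, 585.86 and 602.84 CPM in HG. Its groups did not overlap either, and the log2 difference was 0.31 ± 0.09 (SE), with an interval of 0.10 to 0.52 and a limma adjusted p of 0.24.

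Among the members that were lower, ENSG00000170522 had 23.73, 22.64 and 22.82 CPM in HG-Res, against 30.59, 26.35 and 31.02 CPM in HG. Its 3 HG-Res libraries lay close together below the HG range. The log2 difference was -0.33 ± 0.11 (SE), with an interval of -0.58 to -0.08 and a limma adjusted p of 0.30. ENSG00000149485 had 125.83, 126.89 and 134.20 CPM in HG-Res, against 158.33, 153.86 and 149.47 CPM in HG. All HG-Res libraries were again below all HG libraries, with a log2 difference of -0.25 ± 0.09 (SE), an interval of -0.45 to -0.06 and a limma adjusted p of 0.31.

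The call of 0 depended on which libraries entered the fit, in which the 3 groups share 1 estimate of the spread. With HG-Res and HG alone in the fit, 5 members were called higher and 0 lower, beside 2.47% and 2.16% of all genes. Without HG-Res-SIRT7-Inh replicate 3, 6 were called higher and 2 lower, beside 3.28% and 2.96% of all genes. Without the 2 outlying libraries, 14 were called higher and 2 lower, beside 11.2% and 10% of all genes. ENSG00000131069 and ENSG00000131473 were called higher in all 3 of these fits, with limma adjusted p-values of 0.018 and 0.0239 with 2 groups, 0.00854 and 0.013 without the third HG-Res-SIRT7-Inh library, and 0.00376 and 0.00743 with both outlying ones left out. With the replicate number as a block, neither was called (limma adjusted p = 0.33 and 0.38). The same held with any other single library left out, HG replicate 2 included (limma adjusted p = 0.35 and 0.39). ENSG00000169710 had the largest rise of the 40, 0.50, with no overlap and a limma adjusted p of 0.40. It was also called higher with 2 groups (limma adjusted p = 0.0293) and with both outlying libraries left out (0.00147). The 2 members called lower were ENSG00000170522 and ENSG00000149485, with limma adjusted p-values of 0.0475 and 0.0387 without the third HG-Res-SIRT7-Inh library, and 0.00585 and 0.0202 with both outlying ones left out. The authors' deposited table gave a q-value under 0.05 to 7 members that were higher and 2 that were lower, beside 4.67% and 3.8% of the genes tested here, and marked 0 of the 40 members. Its mark went to genes with an unadjusted p under 0.05 and a fold change over 1.5, whatever the q-value. Shares of all genes marked in this and the inhibitor comparisons are not given, so counts of marked members cannot be set against them.

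**Figure D2:**
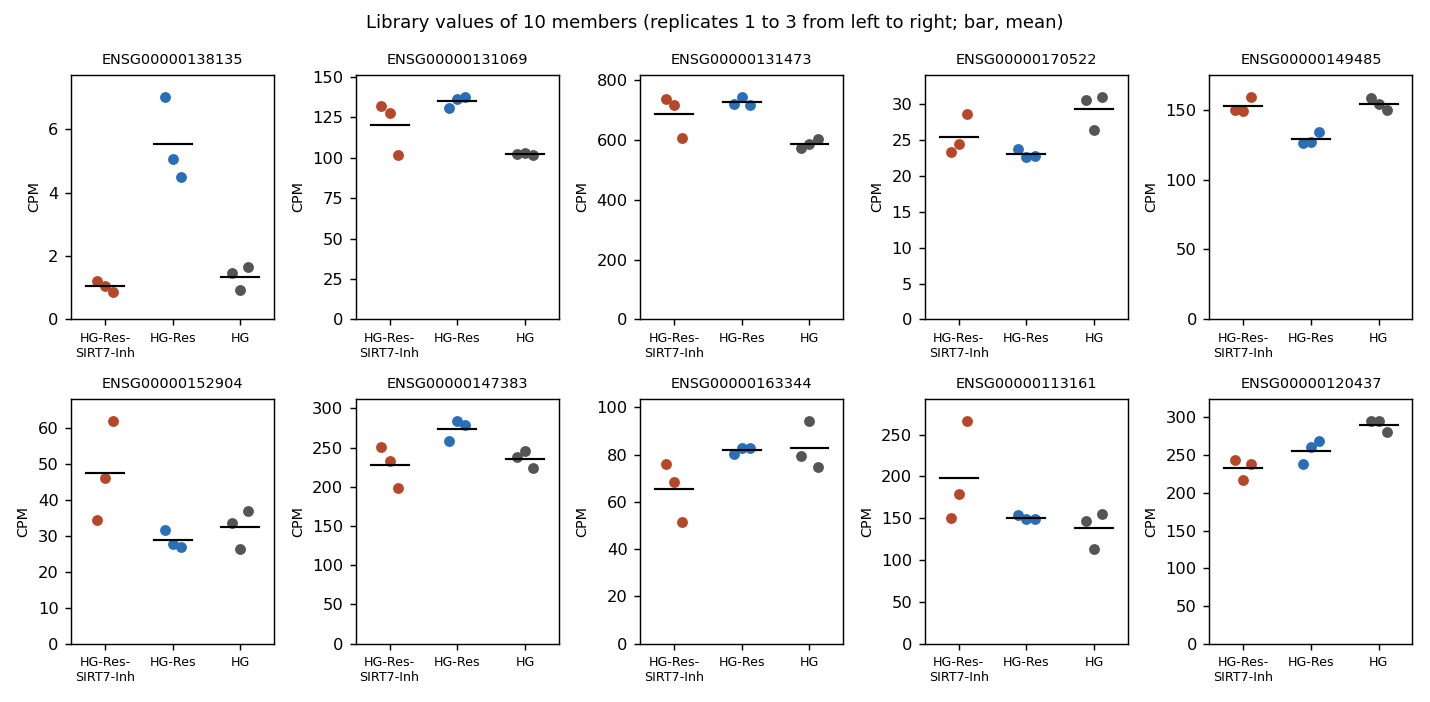
CPM (vertical axis, from 0) in the HG-Res-SIRT7-Inh, HG-Res and HG libraries for ENSG00000138135 and the 9 members named for the smallest adjusted p in each direction. Each point is a library, replicates 1 to 3 from left to right within a group, and the bar is the mean. ENSG00000138135 is high in the HG-Res libraries (4.51 to 7.03 CPM), and the other panels differ far less between groups.

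Summed over the 40 members, which weights abundant genes most, the level was 9706, 9651 and 9594 CPM in the HG-Res libraries, against 8923, 8731 and 9045 CPM in the HG libraries. The HG-Res sums were all above the HG sums. The means were 9650 ± 55.8 CPM in HG-Res and 8900 ± 158 CPM in HG (SD, n = 3 each), 8.43% higher in HG-Res. The sums of the HG-Res-SIRT7-Inh libraries were 9719, 9780 and 9599 CPM, with a mean of 9699 ± 92.4 CPM (SD, n = 3). They overlapped the HG-Res sums and were all above the HG sums, HG-Res-SIRT7-Inh replicate 3 included. No test was made of these sums, because the members were chosen with results of these data known.

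**Figure D3:**
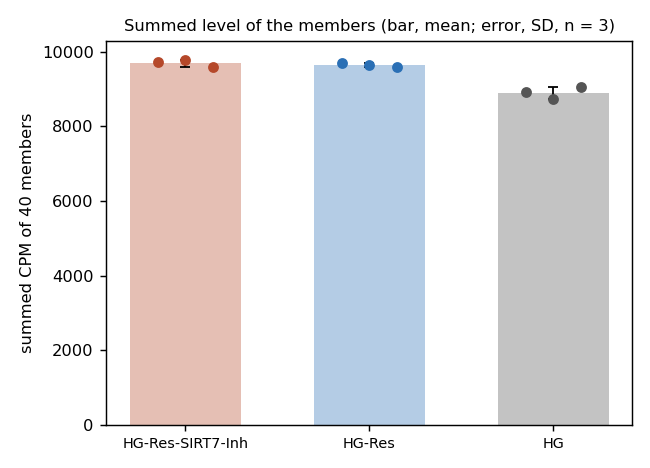
Summed CPM of the 40 members (vertical axis, from 0) in HG-Res-SIRT7-Inh, HG-Res and HG; points are libraries, bars the mean and error bars the SD (n = 3). The sums of HG-Res-SIRT7-Inh (9599 to 9780 CPM) and HG-Res (9594 to 9706 CPM) lie above those of HG (8731 to 9045 CPM).

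Adding the inhibitor to resveratrol was the second comparison, HG-Res-SIRT7-Inh against HG-Res. No member was called, 0 of 40, where 6.07% of all genes tested passed limma's adjusted p of 0.05. At an unadjusted p under 0.05 there were 5 members, 3 higher and 2 lower, beside 24.6% of all genes. The smallest adjusted p was 0.0858 (limma). Here 14 members were higher and 26 lower, and the median log2 difference was -0.08, where all genes had a median of 0.04 and 55% of them were higher. The members ranged from -0.38 to 0.67. On the spread shared by the 3 groups, the interval lay within a 2-fold change for 37 of 40 members and within 1.5-fold for 30. The median changed sign without the 2 outlying libraries, where it was 0.06, beside 0.05 for all genes.

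ENSG00000152904 had the smallest p. It had 34.44, 46.10 and 61.97 CPM in HG-Res-SIRT7-Inh, against 31.55, 27.73 and 27.01 CPM in HG-Res. The groups did not overlap, and the HG-Res-SIRT7-Inh libraries were spread far more widely than the HG-Res libraries. The log2 difference was 0.67 ± 0.20 (SE), with an interval of 0.21 to 1.12 and a limma adjusted p of 0.0858. It was called without HG-Res-SIRT7-Inh replicate 1 (0.87, limma adjusted p = 0.0205), and when the 2 outlying libraries were left out (0.46, limma adjusted p = 0.0307). It was not called with the 2 groups alone (limma adjusted p = 0.12) or with the replicate block (0.0884). Nor was it called without HG-Res-SIRT7-Inh replicate 2 (limma adjusted p = 0.18) or replicate 3 of that group (0.13). The authors' deposited table gave it a log2 fold change of 0.69 and a q-value of 0.0267, the only q-value under 0.05 among the 40 members in that comparison, and marked it as higher. Of the genes tested here, 3.31% had such a q-value and were higher, and 5.38% had one and were lower. The authors' deposited table also marked ENSG00000067064, named here for that mark, at a log2 fold change of 0.63 and a q-value of 0.0932. It had 321.75, 453.84 and 683.60 CPM in HG-Res-SIRT7-Inh, against 345.82, 296.34 and 282.78 CPM in HG-Res, with overlap. Its log2 difference here was 0.59 (limma adjusted p = 0.20), and 0.31 without the 2 outlying libraries (limma adjusted p = 0.15).

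ENSG00000149485, lower in every HG-Res library than in every HG library, had 149.59, 148.65 and 159.16 CPM in HG-Res-SIRT7-Inh, against 125.83, 126.89 and 134.20 CPM in HG-Res. Its HG-Res-SIRT7-Inh libraries lay above the HG-Res libraries and within or beside the HG range of 149.47 to 158.33 CPM. The log2 difference was 0.24 ± 0.09 (SE), with an interval of 0.04 to 0.43 and a limma adjusted p of 0.14, against -0.25 for HG-Res against HG. It was called without the 2 outlying libraries (0.21, limma adjusted p = 0.0394). Both comparisons use the same HG-Res libraries.

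Of the members that were lower with the inhibitor, ENSG00000147383 had 250.56, 232.60 and 198.21 CPM in HG-Res-SIRT7-Inh, against 258.25, 283.59 and 278.36 CPM in HG-Res. The groups did not overlap, and the log2 difference was -0.27 ± 0.11 (SE, interval -0.51 to -0.03, limma adjusted p = 0.16). ENSG00000163344 had 76.11, 68.26 and 51.67 CPM in HG-Res-SIRT7-Inh, against 80.47, 82.84 and 82.99 CPM in HG-Res. Its HG-Res-SIRT7-Inh libraries were all lower, replicate 3 most, and the log2 difference was -0.34 ± 0.15 (SE, interval -0.68 to -0.01, limma adjusted p = 0.19). Without the 2 outlying libraries the differences were -0.18 for ENSG00000147383 and -0.19 for ENSG00000163344 (limma adjusted p = 0.0934 and 0.0868). Over all members, every HG-Res-SIRT7-Inh library was above every HG-Res library in 4 (10%) and below in 3 (7.5%), beside 17.7% and 16% of all genes. Leaving out HG-Res-SIRT7-Inh replicate 1 gave 2 members called higher and 0 lower, beside 6.5% and 7.33% of all genes. Leaving out the 2 outlying libraries gave 2 higher and 2 lower, beside 9.62% and 9.15%.

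The last comparison set resveratrol with the inhibitor against high glucose alone, HG-Res-SIRT7-Inh against HG. Again 0 of 40 members passed limma's adjusted p of 0.05, where 10.8% of all genes did. At an unadjusted p under 0.05 there were 8 members, 6 higher and 2 lower, beside 27.9% of all genes, and the authors' deposited table gave a q-value under 0.05 to 0 of the 40, beside 3% of genes higher and 4.85% lower. The members had a median log2 difference of 0.08, beside 0.04 for all genes, with 28 higher and 12 lower, where 54.6% of all genes were higher. They ranged from -0.35 to 0.61. Without the 2 outlying libraries their median was 0.14, beside 0.01 for all genes. The interval lay within a 2-fold change for 36 members and within a 1.5-fold change for 30. These intervals also rest on the shared spread, which takes in the HG-Res libraries, whose replicates were the closest together. The groups did not overlap in 5 members: 3 were higher and 2 lower, 7.5% and 5% of the members, beside 12.8% and 15.3% of all genes.

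ENSG00000120437 came nearest to the threshold. It had 244.30, 217.06 and 238.35 CPM in HG-Res-SIRT7-Inh, against 294.72, 295.17 and 280.82 CPM in HG. All HG-Res-SIRT7-Inh libraries were below all HG libraries, with a log2 difference of -0.32 ± 0.09 (SE), an interval of -0.52 to -0.11 and a limma adjusted p of 0.0587. It was called lower in the fits that left out HG-Res-SIRT7-Inh replicate 1 (limma adjusted p = 0.0439), replicate 3 of that group (0.0215) or the 2 outlying libraries together (0.018). It was not called with the 2 groups alone (limma adjusted p = 0.19), without HG-Res-SIRT7-Inh replicate 2 (0.18) or with the replicate block (0.11). The authors' q-value was 0.19. Its HG-Res libraries, at 237.80, 260.86 and 268.49 CPM, were below the HG libraries as well and overlapped those with the inhibitor. ENSG00000163344, at 76.11, 68.26 and 51.67 CPM in HG-Res-SIRT7-Inh, had 79.51, 94.16 and 74.87 CPM in HG, with overlap and a log2 difference of -0.35 ± 0.15 (SE, interval -0.68 to -0.02, limma adjusted p = 0.16). With HG-Res-SIRT7-Inh replicate 3 left out that difference was -0.19 (limma adjusted p = 0.22), and with the 2 outlying libraries left out it was -0.10 (limma adjusted p = 0.35).

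Of the members that were higher, ENSG00000152904 had 33.74, 26.38 and 36.97 CPM in HG, which overlapped its HG-Res-SIRT7-Inh values of 34.44 to 61.97 CPM. The log2 difference was 0.51 ± 0.20 (SE, interval 0.06 to 0.97, limma adjusted p = 0.14). It was 0.72 without HG-Res-SIRT7-Inh replicate 1, where it was called (limma adjusted p = 0.0286), 0.31 without replicate 3 of that group and 0.17 without the 2 outlying libraries (limma adjusted p = 0.23 and 0.37). ENSG00000113161 had 150.43, 178.79 and 266.12 CPM in HG-Res-SIRT7-Inh, against 146.89, 113.82 and 154.78 CPM in HG. These overlapped too, with replicate 3 of HG-Res-SIRT7-Inh far above the rest and replicate 2 of HG below the rest. The log2 difference was 0.49 ± 0.20 (SE, interval 0.05 to 0.93, limma adjusted p = 0.14), and 0.12 without those 2 libraries (limma adjusted p = 0.31). It was called without HG-Res-SIRT7-Inh replicate 1 (0.66, limma adjusted p = 0.0414).

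Which members were called against HG depended on the libraries. Without HG-Res-SIRT7-Inh replicate 3, 9 members were called higher and 1 lower, beside 10.7% and 10.5% of all genes. With replicate 1 of that group left out instead, 3 were called higher and 1 lower, beside 8.12% and 8.77%. Without the 2 outlying libraries, 15 were called higher and 3 lower, beside 16.6% and 14.4%. ENSG00000131069 and ENSG00000131473, higher in HG-Res than in HG, were at 131.71, 127.30 and 101.42 CPM and at 737.74, 717.10 and 606.28 CPM in HG-Res-SIRT7-Inh. In both, replicates 1 and 2 lay near or within the HG-Res range and replicate 3 lay near the HG range. Their log2 differences from HG were 0.22 and 0.22 with all libraries (limma adjusted p = 0.23 and 0.16), and 0.34 and 0.31 without HG-Res-SIRT7-Inh replicate 3 (limma adjusted p = 0.00687 and 0.00611). Without both outlying libraries they were again 0.34 and 0.31 (limma adjusted p = 0.00377 and 0.0045). ENSG00000170522, lower in HG-Res, differed from HG by -0.20 with all libraries (limma adjusted p = 0.28). Without both outlying libraries this was -0.35 (limma adjusted p = 0.00592).

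**Figure D4:**
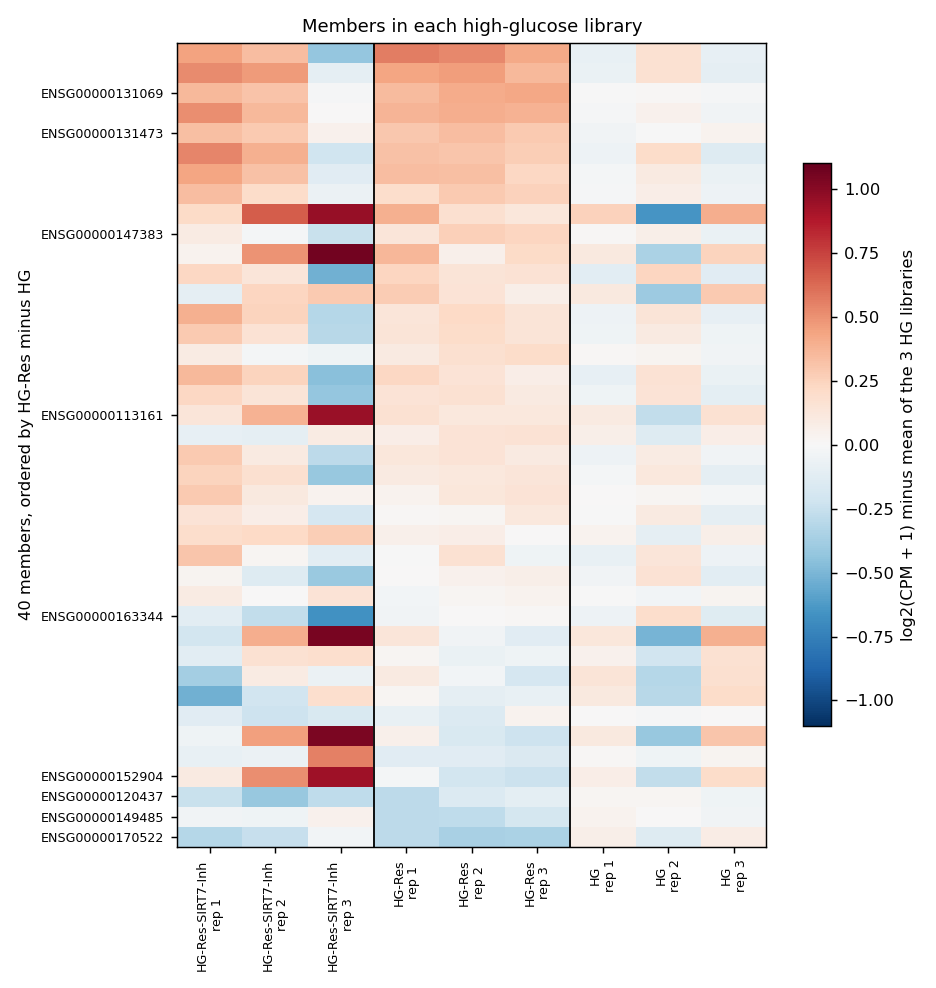
Colour gives log2(CPM + 1) of each of the 40 members (rows, ordered by HG-Res minus HG, with the 9 named ones labelled) in each library (columns) minus the member's mean in HG. The HG-Res columns resemble each other, while HG-Res-SIRT7-Inh replicate 3 and HG replicate 2 depart from the other libraries of their groups in opposite directions in most rows.

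The members' replicates were spread most widely in HG-Res-SIRT7-Inh. The median SD between replicates on the log2 scale was 0.273 in HG-Res-SIRT7-Inh, 0.0507 in HG-Res and 0.125 in HG, beside 0.242, 0.0713 and 0.132 for all genes. HG-Res-SIRT7-Inh replicate 3 and HG replicate 2 were each set against the mean of the other libraries of their group. Their deviations had opposite signs in 37 of the 40 members (92.5%), which held for 83.9% of all genes. In 14 members (35%) HG-Res-SIRT7-Inh replicate 3 was the highest of its group and HG replicate 2 the lowest, beside 35.3% of all genes. In 21 members (52.5%) the order was the opposite, with HG-Res-SIRT7-Inh replicate 3 the lowest and HG replicate 2 the highest, beside 36.7% of all genes. Both patterns were thus also common over all genes. What sets those libraries apart was not tested.

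ENSG00000109929, of the 14, had 81.09, 123.70 and 193.55 CPM in HG-Res-SIRT7-Inh and 102.39, 90.78 and 85.59 CPM in HG-Res, against 101.77, 65.13 and 122.47 CPM in HG. Within HG-Res-SIRT7-Inh, replicate 3 was 0.94 above the mean of the others on the log2 scale, and within HG, replicate 2 was lower by a log2 difference of -0.77. ENSG00000169710, of the 21, had 479.14, 445.78 and 262.16 CPM in HG-Res-SIRT7-Inh and 521.91, 509.14 and 469.31 CPM in HG-Res, against 333.39, 395.55 and 330.61 CPM in HG. Here replicate 3 of HG-Res-SIRT7-Inh stood at -0.82 and replicate 2 of HG at 0.25 on the same scale. Both members were picked as examples after their values were seen. Across the 40 members the deviations of the 2 libraries had a Pearson r of -0.88, and across all 12854 genes -0.69, as descriptions across genes, which are not independent replicates.

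**Figure D5:**
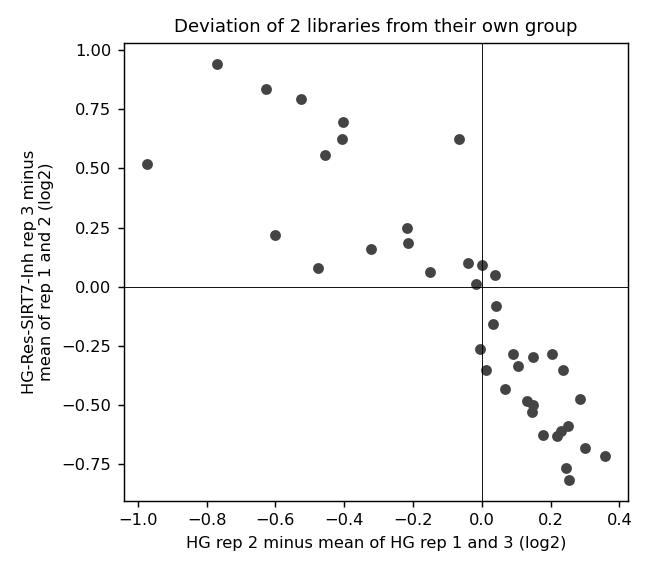
Each point is 1 of the 40 members: the horizontal axis is HG replicate 2 minus the mean of HG replicates 1 and 3, the vertical axis HG-Res-SIRT7-Inh replicate 3 minus the mean of its replicates 1 and 2, both in log2(CPM + 1). The points run from the upper left, as ENSG00000109929 (-0.77 and 0.94), to the lower right, as ENSG00000169710 (0.25 and -0.82).

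Placed by library, the median of the 40 members relative to their HG means was 0.14, 0.16 and -0.05 in HG-Res-SIRT7-Inh and 0.11, 0.14 and 0.11 in HG-Res, against 0.0002, 0.02 and -0.03 in HG. The HG-Res libraries and HG-Res-SIRT7-Inh replicates 1 and 2 lay above every HG library, and HG-Res-SIRT7-Inh replicate 3 below every one. Over all genes the same medians ran from -0.02 to 0.06 in the 9 libraries. The number of members above their HG mean was 27, 29 and 17 in HG-Res-SIRT7-Inh, 31, 29 and 29 in HG-Res, and 20, 23 and 17 in HG.

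High glucose itself could be set against normal glucose in 1 member. The authors' deposited table of HG against Ctrl holds 354 marked genes and no others, and the other 41 members are not in it. That is 1 of 42 members, beside 354 of the 20263 genes in the series. A gene is listed only for its p and fold change, so the listed member's separation and q-value were in part set by that filter. ENSG00000052802 had 328.52, 239.55 and 362.82 CPM in HG, against 194.65, 218.16 and 213.84 CPM in Ctrl. The lowest HG library, replicate 2, was above the highest Ctrl library. The means were 310 ± 63.6 CPM in HG and 209 ± 12.5 CPM in Ctrl (SD, n = 3 each), and the authors' deposited table gave a log2 fold change of 0.63 with a q-value of 0.00125. It had 314.89, 431.11 and 639.76 CPM in HG-Res-SIRT7-Inh and 393.78, 318.06 and 353.17 CPM in HG-Res. Neither differed from HG past limma's threshold (log2 differences of 0.53 and 0.21, adjusted p = 0.18 and 0.85), and each group overlapped HG. Without the 2 outlying libraries those differences were 0.09 and 0.03 (limma adjusted p = 0.66 and 0.87).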

How the data were processed

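Messenger RNA captured on oligo(dT) beads was sequenced as paired 150 bp reads from 12 libraries, per the labels' protocols. Reads were handled with Trimmomatic and the build was rn6, per the submitters' processing notes; no source used here names the aligner, counter, annotation or test. The value columns in the deposited tables are headed TPM, but each full column sums to between 999997 and 1000001 and low values are multiples of 1 step of about 0.032 for every gene, so the deposited values were taken as CPM. Between 57.4% and 100% of low values lay within 0.1 of a whole multiple, so counts were not recovered. The deposited tables also hold the authors' log2 fold changes, p-values and q-values.

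Values were fitted as log2(CPM + 1) with limma 3.58.1 in R 4.3.3, 1 fit over the 9 high-glucose libraries with prior variances following the mean level, and p-values adjusted over 12854 genes by Benjamini and Hochberg's method, with calls at 0.05. Changes of low genes are understated on this scale. The p-values rest on the spread of libraries labelled biological replicates. No 2 libraries of a group held identical values, and all pairs differed beyond counting error. On simulated data (tested with 200 genes made to differ), the fits found 70.2% of the 1.5-fold and 98.5% of the 2-fold differences in HG-Res against HG, 61.2% and 100% in HG-Res-SIRT7-Inh against HG-Res, and 58.2% and 100% in HG-Res-SIRT7-Inh against HG. They called 8, 11 and 9 unchanged genes, out of 12743, 12760 and 12756 tested. The simulated noise was independent between libraries, with 1 spread at each mean level for all groups and no outlying libraries. Changes were planted only in genes above a low mean level. These figures therefore do not tell how often such differences are found with the real libraries, whose spread differed between groups.

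The members and lists were chosen with earlier results of these data known. The lists of roles, other pathway genes and cell type markers, drawn up by gene symbol, could not be matched to identifiers (0 members have a name in the files, and 0 were found in the reference's rat genes, assembly GRCr8) and were not analysed here. Members named in the text are ENSG00000138135, any past the threshold, the member in the HG against Ctrl table, and the 2 with the smallest adjusted p in each direction of each comparison; this last part replaced a list of symbols after the values were seen. ENSG00000160179 (not past the filter), ENSG00000067064 (marked by the authors), ENSG00000109929 and ENSG00000169710 (examples of libraries that stand apart) were named after their values were seen. ENSG00000169710 is also given for its rise in HG-Res. At the estimated depth, 0.5 CPM is about 16 reads. The values of ENSG00000160179 and the low values of ENSG00000138135, down to 0.86 CPM, therefore rest on few reads.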

Additional observations from a re-analysis of the deposited data

How the results depend on the processing

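Counts of called members were 0 in all 3 comparisons with a pseudocount of 0.1, no filter, median-of-ratios scaling (chosen after seeing the data), a single prior variance and the replicate block. Under that scaling, 44 of all genes were called higher and 43 lower in HG-Res against HG. The inhibitor against HG-Res gave 192 and 621, and against HG 499 and 855. Shares of all genes under the other settings just named are not given here, so a 0 there cannot be set against all genes. For HG-Res against HG the count was 5 with the 2 groups alone, 9 by the authors' q-values, and 16 without the 2 outlying libraries. For the inhibitor against HG-Res it was 1 by the authors' q-values and 4 without the outlying libraries, and for the inhibitor against HG 18 without them. Leaving out 1 library gave 0 to 8, 0 to 2 and 0 to 10 calls in these comparisons. Shares of all genes beside the counts above 0 are given with each comparison in the Results. The cause of these shifts in counts was not tested. The member listed for HG against Ctrl, present only because the authors marked it, had a q-value under 0.05. At a 2-fold change or more, 0 were left.

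Among the members named for the smallest adjusted p in each direction, signs turned in 4 small differences. For HG-Res against HG, ENSG00000163344 (-0.0063) was 0.0117 under median-of-ratios scaling, 0.0884 without the outlying libraries and -0.0751 to 0.0884 with 1 library left out, and ENSG00000113161 (0.13) was -0.0021 without the outlying libraries and -0.0021 to 0.218 with 1 left out. For the inhibitor against HG, ENSG00000147383 (-0.06) was 0.0649 without the outlying libraries and -0.134 to 0.0343 with 1 left out, and ENSG00000149485 (-0.0136) was -0.0447 to 0.007 with 1 left out. The other 449 values of these members under alternatives kept their sign, and 29 of them passed the threshold. Larger differences turned in members named for other reasons. For the inhibitor against HG, ENSG00000109929 (0.42) was -0.15 and ENSG00000067064 (0.48) was -0.0077 without the outlying libraries.

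With the replicate number as a block, 0 members were called in each comparison, with no share of all genes given to set beside that. Same-numbered libraries did not deviate together throughout (correlations of -0.55 to 0.64), so the numbers were not taken as a pairing. The planned trimmed-mean scaling and count test were not run, since whole reads could not be recovered.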
